A study of Mus musculus with 8 samples.

Results

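Endothelial transcription factors were followed through 9 genes chosen by name, Sox7, Sox17, Sox18, Foxf2, Foxq1, Erg, Fli1, Ets1 and Ppard, out of 48404 genes listed in the authors' deposited table. The tissue was small blood vessels (microvessels) of the brain of wild type C57BL6 mice, sequenced as RNA. The 8 libraries formed 2 groups, 4 from mice with tMCAO and 4 from sham mice. tMCAO, transient middle cerebral artery occlusion, is a stroke model that closes a large brain artery with a filament, which is then withdrawn; sham animals have the operation without the block. Neither the duration of the block, the time of sampling, nor the age of the mice is given in the sources used here, and the labels do not say whether each library came from a separate mouse. What was analysed is 1 log2 fold change with its p-value per gene, from the authors' own comparison of all 8 libraries, so the level of a gene in each library and the overlap of the groups were not analysed here. In microvessel RNA, a larger share of endothelial cells and more RNA per endothelial cell cannot be told apart.

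Endothelial cells keep their identity through a small set of transcription factors that act together on shared enhancers. The SOXF genes Sox7, Sox17 and Sox18 encode HMG-box proteins with partly overlapping roles in arterial and lymphatic development, and the ETS genes Erg, Fli1 and Ets1 encode proteins that bind a GGAA core in most endothelial enhancers. Foxf2 and Foxq1 are forkhead genes enriched in brain endothelium, Foxf2 also in pericytes, and Ppard encodes a lipid-sensing nuclear receptor that pairs with an RXR receptor. Several of the proteins are not restricted to endothelium: Fli1 and Ets1 are also made in blood cells, and Ppard in most tissues.

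All 9 genes had an adjusted p in the authors' deposited table, and all 9 log2 fold changes were positive, as were those of 49.9% of all 19294 tested genes. With an adjusted p under 0.05 as the threshold, 5 of the 9 rose after tMCAO, Ets1, Sox18, Fli1, Foxf2 and Ppard, and none fell; among all tested genes 32.8% passed, 15.2% higher and 17.6% lower. The median log2 fold change of the 9 genes was 0.58, against -0.0008 for all tested genes. The direction is relative to the median tested gene: centred on the 76 ribosomal protein genes, whose median was 0.87, 8 of the 9 values would be below 0. So would most of all tested genes, of which 14791 would be called lower with that centre. The files do not say which group is the numerator of the fold change. A positive sign was taken to mean higher in tMCAO vessels because the acute injury genes Il6, at 5.92, Lif, at 5.14, and Hmox1, at 3.81 on the log2 scale in the authors' deposited table, were strongly positive.

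**Figure D1:**
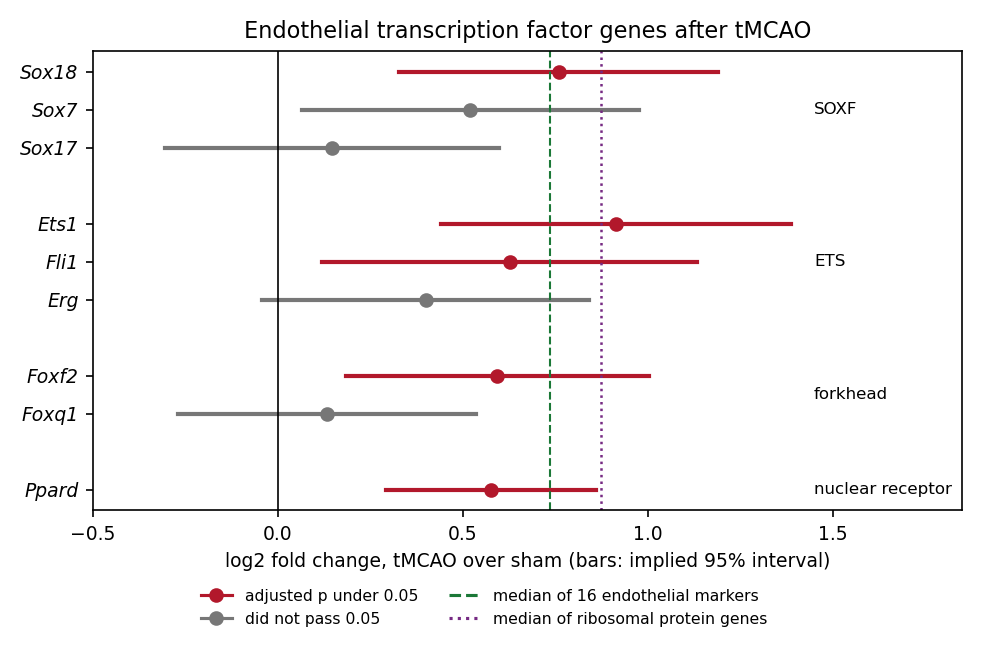
Log2 fold change of the 9 genes, tMCAO over sham, by family; points are the authors' values and bars the 95% interval from the implied standard error. The 5 red genes passed an adjusted p of 0.05. All 9 points lie right of 0, but 7 lie left of the dashed median of the 16 endothelial markers. Left of the dotted median of the ribosomal protein genes lie 8. Most of all tested genes also lie left of both medians.

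Of the SOXF genes, Sox18 passed the threshold, whereas Sox7 and Sox17 did not. Sox18, which is needed for lymphatic and vessel development and activates the claudin gene Cldn5, was 1.69-fold higher in tMCAO vessels by the authors' deposited table (log2 value 0.76, adjusted p = 0.0034), and the 95% interval from its implied standard error of 0.22 ran from 0.33 to 1.19. The implied standard error was derived from the deposited p and fold change. Sox7, a paralog with a part in vessel development, stood at a log2 value of 0.52 in the authors' deposited table, which did not pass (adjusted p = 0.070), although its interval, 0.07 to 0.98, lay above 0. Sox17, the SOXF gene of arterial identity, stood at a log2 value of 0.15 in the authors' deposited table (adjusted p = 0.67; interval -0.31 to 0.60). A log2 change of at least 0.55 would have been needed for Sox17 to pass at its error, so a smaller rise would not have been called. Of the 4772 exonic bases of Sox17, 804 are shared with exons of Gm37587 on the opposite strand, at 0.36 in the authors' deposited table (adjusted p = 0.54). Whether reads were counted by strand is not given in the sources used here, so reads within the shared bases cannot be told apart.

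Among the ETS genes, Ets1 showed the largest log2 fold change of the 9 genes in the authors' deposited table. Ets1, an angiogenic factor that activates matrix protease genes and is also abundant in lymphocytes, was 1.88-fold higher in tMCAO vessels by the authors' deposited table (log2 value 0.91, adjusted p = 0.0012; interval 0.44 to 1.39). That value lay at the 93.9th percentile of all tested genes. Fli1, which keeps endothelial and megakaryocyte identity, was 1.54-fold higher in tMCAO vessels by the authors' deposited table, close to the threshold (log2 value 0.63, adjusted p = 0.047; interval 0.12 to 1.13). Erg, the ETS factor that holds endothelium quiescent and restrains its inflammatory genes, stood at a log2 value of 0.40 in the authors' deposited table (adjusted p = 0.17; interval -0.04 to 0.84). Erg would have passed at 0.54 or more, so its value neither passed nor shows that Erg stayed level. If the deposited p is unadjusted, as its header reads, 22.4% of all tested genes would pass, and Fli1 would not (adjusted p = 0.15).

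The forkhead pair differed in its calls. Foxf2, known for its part in building and keeping the blood-brain barrier, was 1.51-fold higher in tMCAO vessels by the authors' deposited table (log2 value 0.59, adjusted p = 0.018; interval 0.18 to 1.00). Foxq1, its neighbour on chromosome 13, stood at a log2 value of 0.13 in the authors' deposited table (adjusted p = 0.66; interval -0.27 to 0.54). The difference between them was not tested, and their intervals overlapped. Foxf2 would not pass if the deposited p is unadjusted (adjusted p = 0.070). Of the 4843 exonic bases of Foxq1, 3200 lie under exons of A530084C06Rik on the opposite strand, which stood at a log2 value of -0.45 in the authors' deposited table (adjusted p = 0.19). Without strand information, reads within those 3200 bases cannot be told apart either.

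Ppard had the smallest adjusted p of the 9 genes although its fold was moderate. Ppard was 1.49-fold higher in tMCAO vessels by the authors' deposited table (log2 value 0.58, adjusted p = 6.56e-04), and its implied standard error of 0.14 was the lowest of the 9, the others running up to 0.26. Ppard would have passed at a log2 change of 0.35. Over the 9 genes, 6 intervals lay above 0, those of the 5 called genes and Sox7. All 9 intervals shared the range from 0.44 to 0.54, so that none of the 36 pairs of genes had intervals that did not overlap. The order from Ets1 down to Foxq1 is an order of estimates. Overlap of intervals is not a test of a difference, and differences between the 9 genes were not tested. Tested against a log2 change above 0.5 in size, none of the 9 passed, against 2.65% of all tested genes; the closest was Ets1 (adjusted p = 0.79), and 0 of the 9 had an unadjusted p under 0.05 in that test of the normal deviates.

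The promoter sequences of 3 of the 9 genes were in the RefSeq table of build GRCm38.p6. Those of Foxf2 and Ppard, both called higher, and of Erg, not called, are shown to set the genes side by side. Each line gives the 250 bases before an annotated start, read along the gene; capitals mark a match to one of the motifs searched on both strands, CCGGAA for ETS, ACAAT and ACAAAG for SOX, GTAAACA for forkhead, TGANTCA for AP-1, TTCNNNGAA for STAT, ACGTG for the hypoxia element, and the PPAR and RXR element by name.
Foxf2, chr13:31625566-31625815, plus strand: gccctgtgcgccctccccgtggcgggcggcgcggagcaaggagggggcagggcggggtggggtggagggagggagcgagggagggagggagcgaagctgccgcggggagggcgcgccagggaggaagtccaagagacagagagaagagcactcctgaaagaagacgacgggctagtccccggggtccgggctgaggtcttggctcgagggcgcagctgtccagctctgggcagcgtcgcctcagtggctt
Ppard, chr17:28232504-28232753, plus strand: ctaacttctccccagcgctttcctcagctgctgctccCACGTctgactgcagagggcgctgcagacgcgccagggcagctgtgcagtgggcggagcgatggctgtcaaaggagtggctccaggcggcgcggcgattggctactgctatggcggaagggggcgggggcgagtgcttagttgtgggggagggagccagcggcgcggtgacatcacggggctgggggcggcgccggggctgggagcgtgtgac
Erg, of its 3 starts the one nearest the 3′ end of the gene, chr16:95459349-95459598, minus strand: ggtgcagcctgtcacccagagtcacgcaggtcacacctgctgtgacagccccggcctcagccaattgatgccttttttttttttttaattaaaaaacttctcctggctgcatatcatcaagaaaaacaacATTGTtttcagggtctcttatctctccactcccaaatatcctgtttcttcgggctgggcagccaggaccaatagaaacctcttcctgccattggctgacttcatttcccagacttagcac
The Foxf2 window held none of these motifs. The Ppard window held 1 ACGTG, 213 bases before the start, a motif found in 16.6% of all 32851 windows of that length. The Erg window shown held 1 ACAAT on the opposite strand, 120 bases before the start, a motif found in 27.7% of all windows, and the windows of the other 2 Erg starts held no match. No window held CCGGAA, the ETS motif searched, which occurs in 12% of all windows. The shorter GGAA core was not searched for. It can be read in each window shown, in that of Erg on the opposite strand, so ETS sites are not excluded. The Foxf2 and Ppard windows were rich in G and C, at 71.6% and 69.6%, against 47.2% for the Erg window shown and a median of 52.4% over all windows. A match is a description of letters in the window, and the start used in these vessels was not analysed here.

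Several of the genes are neighbours in the genome, per GENCODE M21 on GRCm38. Fli1 (chromosome 9, 32422204 to 32542861, minus strand) and Ets1 (32636221 to 32757820, plus strand) have no protein-coding gene between them, 93359 bases apart, and both rose after tMCAO. On the far side of Ets1, Kirrel3, a cell adhesion gene of neurons, stood at a log2 value of -1.08 in the authors' deposited table (adjusted p = 3.16e-04). Foxq1 (chromosome 13, 31556134 to 31560976) lies 64839 bases before Foxf2 (31625816 to 31631403), and Foxc1, the third forkhead gene of the cluster, stood at a log2 value of 0.70 in the authors' deposited table that did not pass (adjusted p = 0.10). Erg (chromosome 16, 95359169 to 95586593) lies between Kcnj15, a potassium channel gene, at 2.95 in the authors' deposited table (adjusted p = 3.53e-11), and its ETS paralog Ets2, at -0.01 (adjusted p = 0.99). Sox18 (chromosome 2, 181669836 to 181671640) rose while its neighbour Tcea2, an elongation factor gene 8669 bases away, fell by 0.57 on the log2 scale in the authors' deposited table (adjusted p = 0.0023). Sox7 (chromosome 14, 63943673 to 63950732) has Pinx1 before it, which rose by 0.63 on the log2 scale in the authors' deposited table (adjusted p = 0.0029). The tested neighbours of Ppard (chromosome 17, 28232700 to 28301474), Def6 and Fance, and of Sox17 (chromosome 1, 4490931 to 4497354), Rp1 and Mrpl15, did not pass, nor did Gm29797 on the other side of Sox18. The neighbours Kcnj1 of Fli1, Gm5447 of Foxq1 and 4930578I06Rik of Sox7 had no adjusted p.

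**Figure D2:**
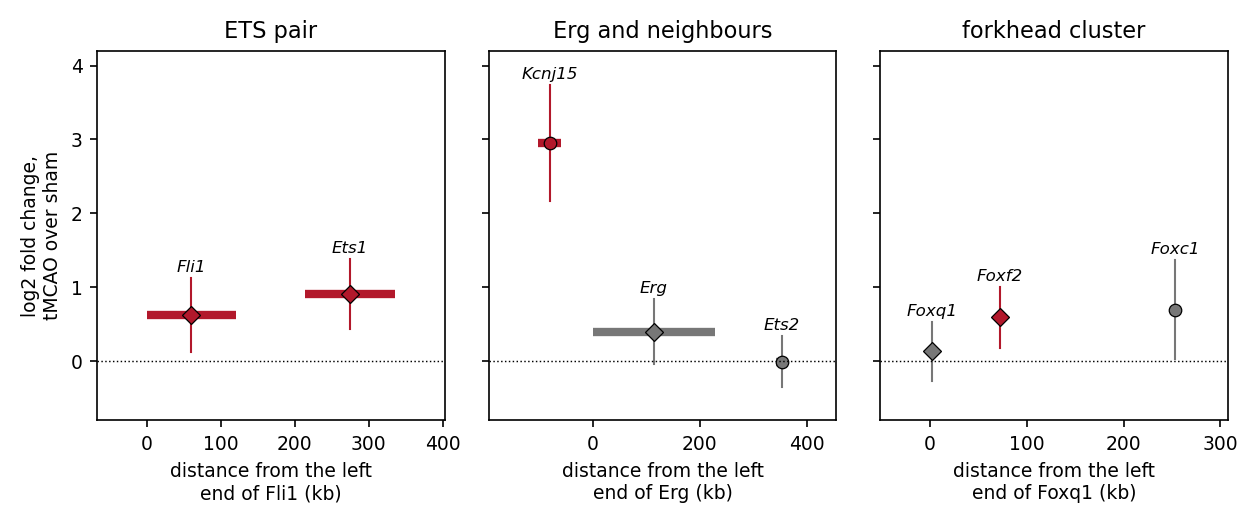
Log2 fold change, tMCAO over sham, of Fli1 and Ets1, of Erg with its neighbours, and of the Foxq1, Foxf2 and Foxc1 cluster, against distance along the chromosome in kb; thick bars span the gene, thin bars are the implied 95% interval, diamonds are the followed genes, and red marks an adjusted p under 0.05. Fli1 and Ets1, at 0.63 and 0.91, are both red, whereas Kcnj15 stands at 2.95 beside Erg at 0.40.

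Within the families of these factors, genes were called in both directions, as among all tested genes, where 15.2% were called higher and 17.6% lower. Of the other tested ETS, SOX and forkhead genes, 47.4%, 50% and 26.1% passed, against 32.8% of all tested genes. Of the other 19 tested ETS genes, 6 rose, 3 fell and 10 did not pass, with a median log2 fold change of 0.26. Elk3, an ETS repressor of vessel growth genes, rose by 1.02, Etv6, a repressor needed for blood and vessel development, by 0.76, the blood cell factor gene Elf4 by 1.42 and the myeloid factor gene Spi1 by 1.35 on the log2 scale in the authors' deposited table. Etv1, Etv4 and Etv5, a subfamily downstream of growth factor signals, fell by 0.64, 0.84 and 0.73 on the log2 scale in the authors' deposited table. Of the other 12 tested SOX genes, 1 rose and 5 fell, with a median of -0.22. Sox8, a gene of glia, fell by 1.52, Sox10, the SOX gene of oligodendrocytes, by 0.87, the neural gene Sox1 by 0.87 and Sox12 by 0.59 on the log2 scale in the authors' deposited table, and Sox4 rose by 0.85. Of the other 23 tested forkhead genes, 3 rose and 3 fell, with a median of 0.17. Foxo1, which represses Cldn5 and controls endothelial growth, rose by 0.59, Foxj1, the forkhead gene of ciliated cells, by 1.13 and Foxn2 by 0.36 on the log2 scale, whereas the neuronal genes Foxp2 and Foxo6 fell by 0.45 and 0.76, all in the authors' deposited table. Centred on the endothelial markers or on the ribosomal protein genes, none of the other ETS, SOX and forkhead genes would be called higher.

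PPARD works with an RXR partner on genes of lipid and energy use. Ppard alone of the 6 PPAR and RXR genes rose; Rxrg fell by 1.55 and Rxrb by 0.27 on the log2 scale, and Rxra, Ppara and Pparg had log2 fold changes of 0.34, -0.36 and -0.22 that did not pass, in the authors' deposited table. Of 15 tested PPAR target genes, 5 rose, 1 fell and 9 did not pass, with a median of 0.40. Thus 40% of the targets passed, against 32.8% of all tested genes. The lipid droplet gene Plin2 rose by 2.02, the lipase inhibitor gene Angptl4 by 1.21, the kinase gene Pdk4, which spares glucose, by 0.98 and Ucp2 by 0.77 on the log2 scale, while Ucp3 fell by 1.18, in the authors' deposited table. These genes also answer to other signals, and PPARD activity was not measured.

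Endothelial genes known as targets of ETS or SOXF proteins rose in 13 of 20 cases and fell in none, with a median of 0.82. Rasip1, needed for vessel lumens, rose by 1.32, the Notch ligand gene Dll4 by 1.15, the TGF-beta co-receptor gene Eng by 1.17 and Robo4, a receptor of vessel stability, by 0.89 on the log2 scale in the authors' deposited table. Of the 20, 10 are also on the list of general endothelial markers. Among the 10 that are not, 6 rose and none fell, with a median of 0.80, against 0.73 for the markers. Of all tested genes 15.2% were called higher. The 10 are endothelial genes too, and the activity of ETS and SOXF proteins was not measured. Of 26 other transcription regulators of endothelium, 6 of them in the families above, 6 rose, 2 fell and 18 did not pass, with a median of 0.39. Thus 30.8% of these regulators passed, near the 32.8% of all tested genes. Meox1, a homeobox gene known from vascular cells, rose by 2.42 and Tal1, a helix-loop-helix gene shared with blood, by 1.13, whereas Mef2c, which neurons and microglia also express, fell by 1.02 and the Notch target gene Hey1 by 0.25 on the log2 scale in the authors' deposited table. Over the 7 related lists, with the 9 genes left out, 31 genes rose and 16 fell of 114 tested; Meox1 and Plin2 are the 2 that would still be called higher with the endothelial or the ribosomal centre.

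**Figure D3:**
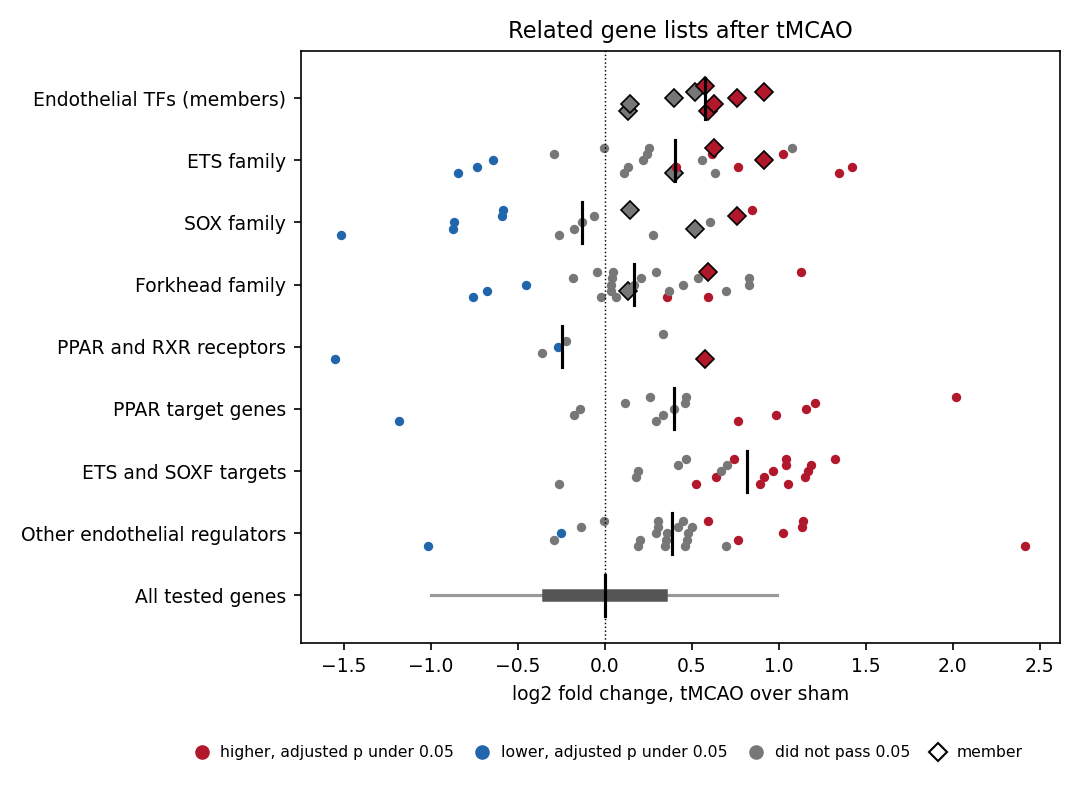
Log2 fold change, tMCAO over sham, of each tested gene in the related lists, with list medians as black bars, diamonds for the 9 followed genes and the quartiles and 5th to 95th percentile of all tested genes at the bottom. The median of the 9 genes, 0.58, lies between that of the ETS genes, 0.40, and that of the ETS and SOXF targets, 0.82. Centred on ribosomal protein genes, whose median is 0.87, all of these medians and that of all tested genes would be below 0.

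The markers of cell types show what moved beside the 9 genes. All 16 endothelial markers had an adjusted p. Of these markers 10 rose and none fell, with a median of 0.73 and a range from -0.34 to 1.31 on the log2 scale. Among all tested genes, 15.2% were called higher and 17.6% lower. Ly6a rose by 1.31, the VE-cadherin gene Cdh5 by 1.18, Emcn by 1.14 and Egfl7 by 1.04 on the log2 scale in the authors' deposited table. Relative to that median, Ets1 stood 0.18 and Sox18 0.02 above it on the log2 scale, and the other 7 genes stood below it. Foxq1, at -0.60 (adjusted p = 0.0056), and Sox17, at -0.59 (adjusted p = 0.016), would be called lower relative to the endothelial markers, with the error of the marker median not counted. With that centre 70.3% of all tested genes would be called lower, so these calls are not particular to Foxq1 and Sox17. Erg, at -0.34 (adjusted p = 0.17), and Sox7, at -0.21 (adjusted p = 0.40), would not.

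Neutrophil and monocyte markers had medians above the highest value of the 9 genes. Neutrophil markers rose in 5 of 7 tested genes (median 2.26, range 0.79 to 3.14), and monocyte markers in 7 of 8 (median 1.63, range 0.91 to 2.23). Fli1 and Ets1 are also made in blood cells, so the neutrophil, monocyte, platelet and lymphocyte lists are all relevant to both. Platelet and megakaryocyte markers rose in 2 of 7 (median 0.09), Itga2b by 0.88 and Pf4 by 1.27 on the log2 scale in the authors' deposited table. Lymphocyte markers, relevant to Ets1, were tested for 3 of 10 genes (median -0.29, range -1.24 to 0.14). Cd4 fell by 1.24 on the log2 scale in the authors' deposited table, and the other 2 did not pass. The T cell genes Cd3e, Cd3d and Cd3g had no adjusted p. Pericyte markers, relevant to Foxf2, rose in 2 of 10 and fell in 1 (median 0.04), with Kcnj8 at 0.83, Abcc9 at 0.45 and Cspg4 at -0.42 in the authors' deposited table. Fibroblast markers rose in 3 of 8 (median 0.68), smooth muscle markers in 1 of 8 (median 0.19), and none of 8 astrocyte markers passed (median -0.10). Neuron markers fell in 10 of 10 (median -1.05), microglia markers in 6 of 8 (median -1.41), oligodendrocyte markers in 5 of 8 (median -0.60) and oligodendrocyte precursor markers in 4 of 6 (median -1.04). Beside these counts, 15.2% of all tested genes were called higher and 17.6% lower. The part of these cell types in the values of the 9 genes was not tested.

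**Figure D4:**
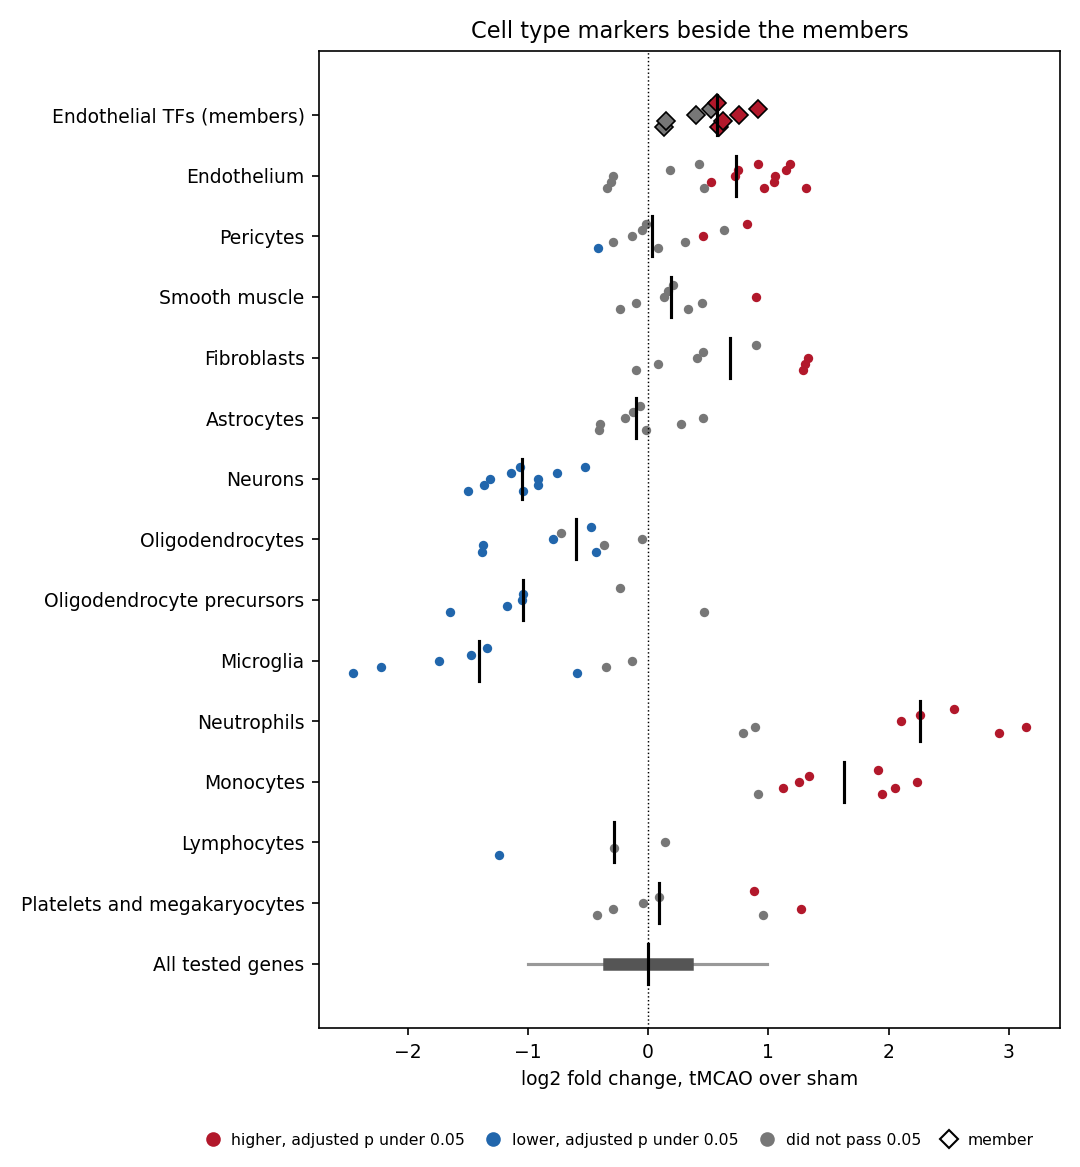
Log2 fold change, tMCAO over sham, of the 9 genes (diamonds, top) and of each tested marker of 13 cell types, with medians as black bars and all tested genes at the bottom. The 9 genes lie within the range of the endothelial markers, -0.34 to 1.31, below the median of monocytes, 1.63, and above that of neurons, -1.05. They also lie within the range of the fibroblast markers, -0.10 to 1.33, and of the platelet and megakaryocyte markers, -0.42 to 1.27. Centred on ribosomal protein genes, 8 of the 9 would be below 0, as would most of all tested genes.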

How the data were processed

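RNA was sequenced from mouse brain microvessels in 4 tMCAO and 4 sham libraries, grouped by the treatment label, after removal of ribosomal RNA, per the labels' protocols. Tools named in the submitters' processing notes, without roles or options, are STAR, HTSeq, DESeq2, cutadapt and bcl2fastq 2.19, with the build GRCm38 (mm10). The deposited log2 fold changes and p-values are those of the authors' own comparison, per the file headers; 0 columns hold values per library, so depth per library is unknown and no library could be left out. Z-scores, a rescaled fold change, were not used.

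The deposited p-value was taken as already adjusted by the Benjamini-Hochberg method: genes that differ in fold change share 3214 of its values. An unadjusted p was recovered from its rank among 19294 values and, with a normal scale, gave the implied standard error (Python 3.11.15, scipy 1.17.1). The arithmetic was tested on data simulated with the same normal scale, so the scale itself was not checked. Accuracy was required only for changes larger than those of the genes followed here. The authors may have shrunk the fold changes towards 0, as the options of their tools are not given, and this was not tested. In the deposited data 8 log2 values recur over many genes, but the recurrence was not tied to shrinkage. If the fold changes were shrunk, folds and errors would be affected. The p-values rest on the spread between libraries, which the labels do not tie to separate mice and which may be technical.

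Calls used an adjusted p under 0.05 over all tested genes, with no set test. The genes and lists were chosen with earlier results of these data known. Named genes are the 9 genes, in each list the up to 4 genes per direction that passed with the smallest adjusted p, and the nearest protein-coding neighbours; Elk3, Etv6 and Foxo1 count under more than 1 list, Cd3e, Cd3d, Cd3g, Il6, Lif and Hmox1 were added, and 1 gene that the rule names is not reported here. Motifs were searched in RefSeq promoters of GRCm38.p6; 47958 of 48404 gene IDs matched GENCODE M21. Alternatives were the reading of the p, its threshold, the genes adjusted over, the centre of the fold changes and a minimum size.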

Additional observations from a re-analysis of the deposited data

How the results depend on the processing

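Of 9 alternatives run, 7 kept all 9 log2 fold changes positive, and Ets1, Sox18 and Ppard stayed called higher in 6. In those 7 no sign could change. Their fold changes were left as they were, or centred on medians of -0.0008 and -0.0079, which raises every value. Only the endothelial and ribosomal centres, given below, could turn a sign, and both did. With the deposited p read as unadjusted, 3 of the 9 genes rose (the adjusted p was 0.070 for Foxf2 and 0.15 for Fli1) and 9 genes of the related lists fell; with a threshold of 0.01, again 3 rose, Foxf2 (0.018) and Fli1 (0.047) being lost, and 9 fell. With 0.1, Sox7 (0.070) also passed. Tested against a log2 change above 0.5 in size, 0 of the 9 passed (Ets1 adjusted p = 0.79; Sox18, Foxf2, Fli1 and Ppard 1), and 2 genes of the related lists rose and 1 fell. Adjusting over protein-coding genes, or centring on all tested genes or the 4824 best measured genes, changed no call among the 9.

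Centred on the 16 endothelial markers, 0 of the 9 were higher and 2 lower, and 2 genes of the related lists were higher and 46 lower. The adjusted p was 0.51 for Ets1 and 0.93 for Sox18, still above 0, and for those turned below 0 it was 0.71 for Fli1, 0.55 for Foxf2, 0.31 for Ppard, 0.40 for Sox7, 0.17 for Erg, 0.016 for Sox17 and 0.0056 for Foxq1. Centred on ribosomal protein genes, 0 of the 9 were higher and 3 lower, and 2 related genes were higher and 57 lower. The adjusted p was 0.88 for Ets1, still above 0, and for those below 0 it was 0.64 for Sox18, 0.37 for Fli1, 0.21 for Foxf2, 0.0504 for Ppard, 0.15 for Sox7, 0.046 for Erg, 0.0024 for Sox17 and 5.32e-04 for Foxq1. Both centres move every gene: of all tested genes, 13567 would be lower with the first and 14791 with the second. A constant shift leaves the order of the 9 genes as it is.

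No paired analysis was possible because the groups share no replicate numbers, and leaving out a replicate, another normalization or another filter on low counts was not run because only the authors' comparison was analysed. Errors of 0.14 to 0.26 limit what can be called to log2 changes of 0.35 to 0.62 for these genes.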
